A study of Mus musculus with 18 samples.

Results

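The Hox cluster genes encode homeodomain transcription factors that pattern the head-to-tail axis of the embryo. They were taken as every row of the deposited count table whose symbol is Hox followed by a cluster letter from a to d and a paralogue number, which gave 39 of 21638 genes. Endothelial cells, which line blood vessels, came from adult mouse cortex by a sort for CD31 that left out cells with CD41 or CD45. Their messenger RNA was sequenced with a low-input SMART-Seq PLUS kit. The 18 libraries form 6 groups of 3. Sham-operated mice, labelled WT, gave a group from the ipsilateral and one from the contralateral side of the brain, and so did mice with middle cerebral artery occlusion (MCAO), a surgical model of stroke, also labelled WT. The other groups are ipsilateral cells after MCAO from mice labelled Hdac2 ECKO (Hdac2 lox/lox with Cdh5CreERT2) and Ezh2 ECKO (Ezh2 lox/lox with Cdh5CreERT2). In these lines the Cdh5 promoter drives a tamoxifen-dependent Cre recombinase in endothelial cells. The sample labels list tamoxifen at 75 mg per kg for every library, controls included, and the series text gives 5 doses for the ECKO lines. Cells were collected on day 7. The labels do not say that the 3 libraries of a group came from separate mice, so p-values measure only the spread between these libraries, which may be technical.

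As background, Hox genes lie in 4 clusters in the mouse, and paralogue numbers follow their order along the chromosome. Genes at the low-numbered end are used in anterior segments of the embryo and those at the high-numbered end in posterior ones, while the forebrain forms without Hox activity. Where they are silent, the clusters are textbook targets of Polycomb: repressive complex 2 (PRC2), with Ezh2 as its methyltransferase, marks their chromatin with H3K27 methylation, and repressive complex 1 (PRC1) acts on marked chromatin. Trithorax-group proteins oppose this, and retinoic acid turns on the anterior genes in the embryo. The libraries labelled Ezh2 ECKO, all of ipsilateral cells after MCAO, were therefore read for Hox RNA. Whether the enzyme was lost in these cells was not measured here.

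Polycomb is recruited in mammals mainly to CpG-rich DNA, so the DNA just upstream of the Hox start sites is shown for 3 members. RefSeq (GRCm38.p6) gave the 250 bases before the start site for 22 of the 39 genes. These cover all of HoxD and most of HoxA, but only Hoxb1, Hoxb4 and Hoxb8 of HoxB and only Hoxc4 of HoxC. Several windows, among them those of Hoxa11 and Hoxd11 but none of the 3 shown, overlap an annotated Hox exon. Hoxa9 is shown because it was the one member that passed the count filter, Hoxa13 because it had the smallest adjusted p without that filter, and Hoxb4 because its CpG count lies near the Hox median. The windows are chr6:52227371-52227620 on the minus strand for Hoxa9, chr6:52260881-52261130 on the minus strand for Hoxa13 and chr11:96318017-96318266 on the plus strand for Hoxb4. The Hoxa9 window abuts the start of its principal coding transcript, and the annotated gene span runs 3.72 kb further upstream through noncoding transcripts. The windows run 5′ to 3′ along the gene's strand, and capitals mark each CpG, the letters CG, which read alike on both strands.
Hoxa9: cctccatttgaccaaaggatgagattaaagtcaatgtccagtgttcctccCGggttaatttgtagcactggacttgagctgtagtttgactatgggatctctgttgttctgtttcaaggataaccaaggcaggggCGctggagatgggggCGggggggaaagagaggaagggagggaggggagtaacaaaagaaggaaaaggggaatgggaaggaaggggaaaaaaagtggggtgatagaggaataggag
Hoxa13: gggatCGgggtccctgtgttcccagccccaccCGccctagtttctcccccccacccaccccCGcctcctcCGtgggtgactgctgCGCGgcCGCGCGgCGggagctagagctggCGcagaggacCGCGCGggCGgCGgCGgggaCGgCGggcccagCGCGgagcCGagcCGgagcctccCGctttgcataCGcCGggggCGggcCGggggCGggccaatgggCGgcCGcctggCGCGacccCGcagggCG
Hoxb4: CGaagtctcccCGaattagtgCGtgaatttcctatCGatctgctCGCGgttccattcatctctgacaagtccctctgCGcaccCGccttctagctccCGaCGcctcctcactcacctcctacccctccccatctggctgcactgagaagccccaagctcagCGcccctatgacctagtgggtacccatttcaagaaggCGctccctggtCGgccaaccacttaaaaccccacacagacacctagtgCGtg
The Hoxa9 window holds 3 CpG, the Hoxb4 window 14 and the Hoxa13 window 35. Over the 22 Hox windows the count ran from 2 to 35 with a median of 12, against a median of 1 over 1267 olfactory and vomeronasal receptor windows and 6 over all 27025 windows in the table. At least 12 CpG stood in 54.5% of the Hox windows, 0.158% of the receptor windows and 33.8% of all windows, and a CG was present in 100%, 59.4% and 91.7% of them. The cut of 12 is the Hox median itself, so the Hox share at that cut was set by its choice and is no result. These are properties of the reference sequence, and no chromatin mark or methylation value was analysed here.

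Library totals ran from 25791401 to 57576255 counts, and 15428 to 20940 of the 21638 genes had a count above 0. The endothelial label fitted the markers: 12 of 12 endothelial markers passed the count filter, with a summed level of 12676 to 25843 CPM (the count as a share of the unscaled library total, times 1e6). Summed CPM in a library ran from 17.1 to 194 for pericyte and smooth muscle markers, 0.909 to 15.4 for fibroblast, 1.68 to 17.8 for microglia and macrophage, 268 to 723 for leukocyte and blood stem cell (11.1 to 66.0 without Cd34, which endothelial cells also express), 0.541 to 9.46 for neuron, 0.473 to 14.7 for astrocyte, 3.38 to 140 for oligodendrocyte lineage and 0.0395 to 355 for ependymal and choroid markers. The 5 red cell genes ran from 93.6 to 199488 CPM, and in no list was a marker at 0 in every library. Olfactory (Olfr) and vomeronasal (Vmn) receptor genes, 1466 in the table, are normally silent outside sensory epithelia and served as a measure of background reads. Their summed level ran from 152 to 716 CPM in 16 libraries and stood apart at 1889 CPM in MCAO contralateral 1 and 2083 CPM in Ezh2 ECKO 2, so Hox results are also given without these libraries.

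The targeted genes were checked in every library. Ezh2 (chr6:47530139-47595341 on GRCm38, the PRC2 methyltransferase) measured 11.7, 26.3 and 9.03 CPM in the Ezh2 ECKO libraries, 3.14, 14.9 and 0.967 in Hdac2 ECKO, 4.40, 6.20 and 8.06 in MCAO ipsilateral, 21.8, 2.67 and 8.85 in MCAO contralateral, 16.2, 8.24 and 8.02 on the ipsilateral side of sham mice, and 11.1, 1.49 and 5.20 on their contralateral side. All 3 libraries labelled Ezh2 ECKO lay above all 3 of MCAO ipsilateral, with a log2 difference of 1.05 ± 0.86 (SE, n = 3 against 3, edgeR adjusted p = 0.485). Hdac2 (chr10:36974544-37001889, a histone deacetylase) measured 38.6, 66.0 and 96.5 CPM in the Hdac2 ECKO libraries, 136, 209 and 127 in Ezh2 ECKO, 83.5, 60.2 and 98.7 in MCAO ipsilateral, 76.5, 67.8 and 102.8 in MCAO contralateral, 114, 135 and 81.4 on the ipsilateral side of sham mice, and 74.3, 129.6 and 114 on their contralateral side. The Hdac2 ECKO values overlapped those of MCAO ipsilateral, with a log2 difference of -0.11 ± 0.32 (edgeR adjusted p = 0.925). Neither targeted gene passed the test in the libraries labelled as deleted. A loss of the floxed exons alone was not analysed here, since the table has 1 value per gene. These groups are therefore called by their labels, and every direction below rests on those labels.

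Hox transcripts were near the limit of counting in every group. Of the 702 pairs of a Hox gene and a library, 386 had a count of 0, 290 had 1 to 9, and 26 had 10 or more. Of the 316 pairs above 0, 132 had a count of exactly 2, which is what 1 read pair gives when both mates are counted. The 39 genes summed to 1564 counts over all 18 libraries. Each member had a count above 0 in at least 1 library, yet 22 never reached 10. Of the 17 that did, 10 reached it in exactly 1 library, 6 in exactly 2, and Hoxa9 alone in 3 or more. MCAO contralateral 1 and Ezh2 ECKO 2 held 16 of the 26 pairs at 10 or more. Without these libraries, 7 members reached 10 anywhere, and Hoxa9 remained the one member that did so in 3 libraries.

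The libraries with the highest receptor levels had the most Hox genes detected, but in the rest the order was not the same. In sham ipsilateral, 11, 23 and 16 Hox genes had a count above 0 and 0, 2 and 0 had 10 or more, beside receptor levels of 285, 716 and 463 CPM. In sham contralateral, 12, 19 and 15 were above 0 and 0, 1 and 0 at 10 or more, beside 269, 326 and 207 CPM. Within each of the 6 groups, these and those below, the library with the most Hox genes above 0 also had the highest receptor level.
In MCAO ipsilateral, 10, 11 and 24 Hox genes were above 0 and 0, 0 and 1 at 10 or more, beside receptor levels of 242, 154 and 296 CPM. In MCAO contralateral, 35, 10 and 9 were above 0 and 11, 0 and 0 at 10 or more, beside 1889, 174 and 152 CPM. The library with 35 detected genes is the one with the receptor level that stands apart.
In Hdac2 ECKO, 11, 14 and 24 Hox genes were above 0 and 0, 2 and 2 at 10 or more, beside receptor levels of 198, 325 and 639 CPM. In Ezh2 ECKO, 18, 35 and 19 were above 0 and 1, 5 and 1 at 10 or more, beside 268, 2083 and 600 CPM. Over all libraries, 9 of 18 had no Hox gene at 10 or more, and no Hox gene reached 10 in all 3 libraries of any group. A count of 0 allows up to 3 read pairs, or 6 counts with both mates counted, which corresponded to 0.104 to 0.233 CPM. The floor covers counting error alone, because the reads carry no molecular identifiers.

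**Figure D1:**
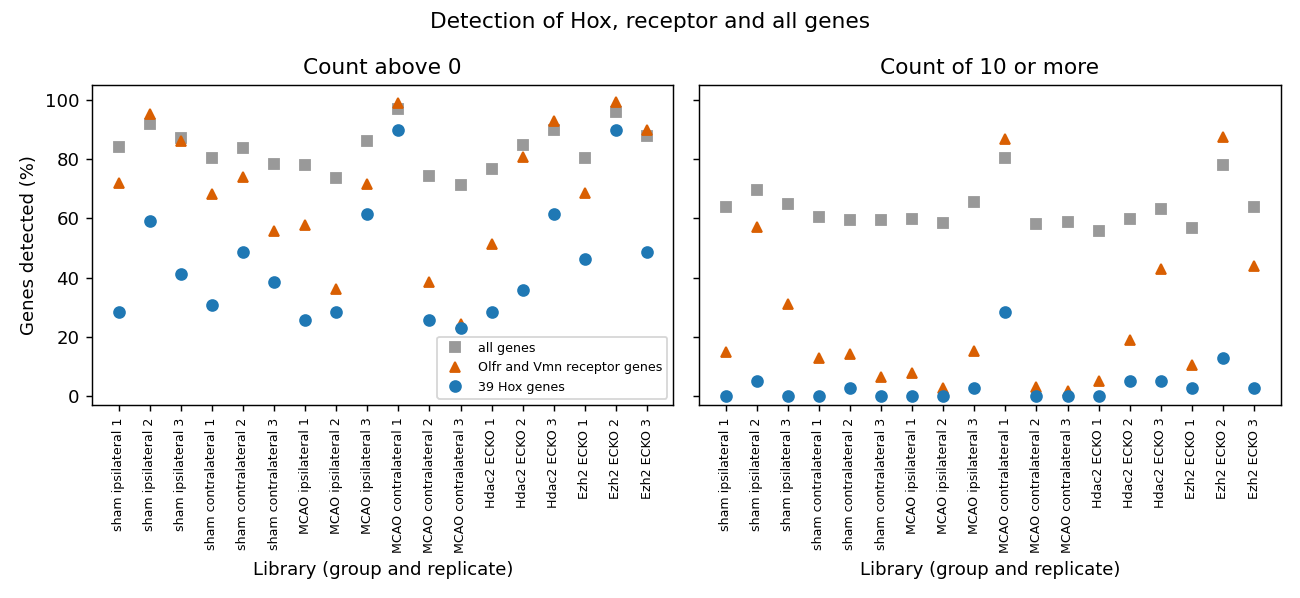
Share of genes (%) with a count above 0 and with 10 or more in each of the 18 libraries, for the 39 Hox genes, the 1466 receptor genes and all 21638 genes. The Hox share is not above the receptor share at either threshold in any of the 18 libraries.

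The Hox genes were also lower than the receptors once gene length was taken into account. Hox genes were the shorter set, with a median length of 2.47 kb against 3.15 kb. Summed counts per kb of the Hox genes, divided by those of the receptors in the same library, ran from 0.147 in sham contralateral 1 to 0.459 in MCAO ipsilateral 3 with a median of 0.224, and were under 1 in 18 of 18 libraries. A few receptor genes carried much of that background: the 10 highest held 29.2% of receptor counts pooled over the 18 libraries. Without them the ratio ran from 0.240 to 0.999, still under 1 in 18 of 18. Their weight differed between libraries. Leaving them out moved the ratio from 0.166 to 0.938 in MCAO contralateral 3, but from 0.221 to 0.240 in Ezh2 ECKO 2. The receptor level given as background and used as a covariate includes these genes. Another set chosen as silent in endothelium was 77 bitter taste receptor and beta-defensin genes (Tas2r and Defb). Against this set the ratio ran from 0.221 to 1.62 and was under 1 in 15 of 18. By gene, the mean level per length had a Hox median of 0.0236 CPM per kb and a highest value of 0.0623 CPM per kb, for Hoxc6. Without Hdac2 ECKO 3 the mean of Hoxc6 was 0.0258 CPM per kb, and Hoxc8 was highest at 0.0444. The receptor median was 0.0677 CPM per kb, above every Hox gene, and 75.6% of all genes lay above Hoxc6.

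Summed Hox level and receptor level moved together across libraries. The summed Hox level was 0.870, 3.06 and 1.84 CPM on the ipsilateral side of sham mice, 0.742, 2.78 and 0.873 on their contralateral side, and 0.699, 0.838 and 2.55 in MCAO ipsilateral. It was 11.5, 0.608 and 0.474 CPM in MCAO contralateral, 0.642, 2.76 and 4.93 in Hdac2 ECKO, and 1.84, 8.65 and 2.52 in Ezh2 ECKO. Every pair of groups overlapped, and in each of the 6 groups the highest library was over 3 times the lowest.
Across the 18 libraries Pearson's r between receptor CPM and summed Hox CPM was 0.945 and Spearman's rho 0.915. Without the libraries farthest from the median receptor level, Ezh2 ECKO 2 and MCAO contralateral 1, r was 0.798 and rho 0.882 over 16 libraries, and with group means removed r was 0.954 over 18. The values share their library's depth and total, so the correlation is a description. The group means ± SD (n = 3) were 1.36 ± 1.03 CPM in MCAO ipsilateral, 1.92 ± 1.10 on the ipsilateral and 1.47 ± 1.14 on the contralateral side of sham mice, 4.19 ± 6.31 in MCAO contralateral, 2.78 ± 2.15 in Hdac2 ECKO and 4.34 ± 3.75 in Ezh2 ECKO. In bulk RNA, fewer cells with a transcript and less transcript per cell cannot be told apart.

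**Figure D2:**
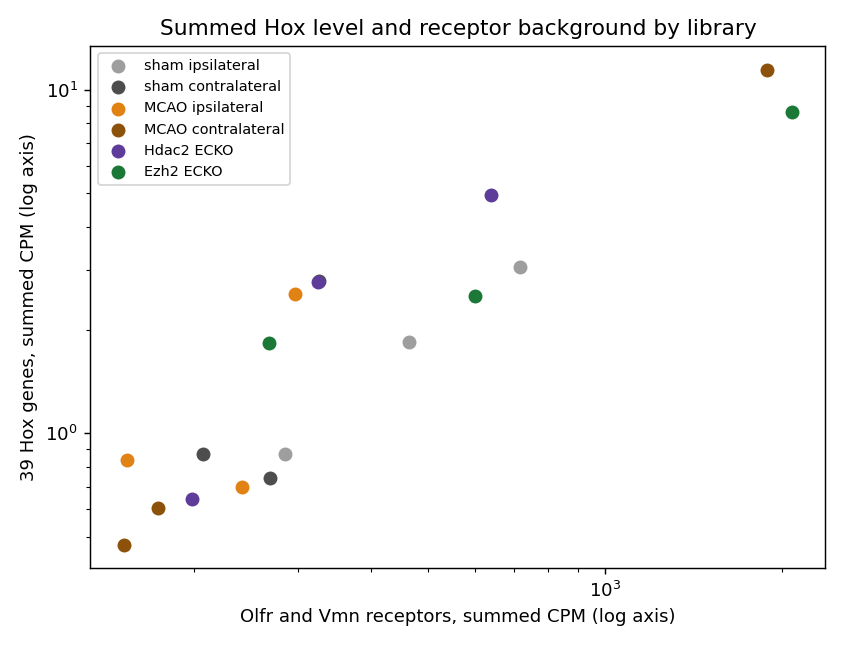
Summed Hox CPM (vertical axis, log scale) against summed Olfr and Vmn receptor CPM (horizontal axis, log scale), 1 point per library coloured by group. MCAO contralateral 1 and Ezh2 ECKO 2 are highest on both axes, at 11.5 and 8.65 Hox CPM.

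The 4 clusters had like levels. The HoxA cluster (11 genes, chr6:52155590-52260880, minus strand) held 486 counts over all libraries, HoxB (10 genes, chr11:96194316-96368256) 388, HoxC (9 genes, chr15:102921103-103036852) 344 and HoxD (9 genes, chr2:74668310-74765142) 346. The median level over libraries was 0.0134 CPM per kb for HoxA, 0.0137 for HoxB, 0.0132 for HoxC and 0.0124 for HoxD. By position along the clusters, the 12 anterior genes (paralogues 1 to 4) had a median of 0.0183 CPM per kb, the 11 central genes (5 to 8) 0.0138 and the 16 posterior genes (9 to 13) 0.0124. In each of these classes the level ranged over more than 10-fold between libraries. Gene spans overlap in 8 pairs of members: Hoxa3 with Hoxa4, Hoxa5 and Hoxa6, Hoxc5 with Hoxc6, Hoxc8, Hoxc9 and Hoxc10, and Hoxd3 with Hoxd4. How the authors' counting divided reads between these genes is not given in the sources used here, so their single values are uncertain.

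Among anterior genes, the highest counts fell in different libraries for different genes. Hoxb3, whose product acts in hindbrain patterning, had 60 counts in Hdac2 ECKO 2, 14 in sham ipsilateral 2 and at most 8 elsewhere. Hoxb4, known for expanding blood stem cells, had 16 counts in MCAO ipsilateral 3 and 12 in Ezh2 ECKO 2. Hoxa3, which patterns pharyngeal organs, had 18 counts in Ezh2 ECKO 2 and 16 in MCAO contralateral 1. Each of these highs belongs to 1 or 2 libraries of different groups. Hoxb2 reached 12 counts and Hoxd4 18 in MCAO contralateral 1, and Hoxc4 reached 18 and Hoxd3 10 in Ezh2 ECKO 2.

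Among central genes, Hoxc6 had 51 counts in Hdac2 ECKO 3, 12 in MCAO contralateral 1 and at most 5 elsewhere. Hoxc8, a regulator of thoracic identity, had 18 counts in MCAO contralateral 1 and 16 in Ezh2 ECKO 1. Hoxa7 reached 22 and Hoxb5 18, both in MCAO contralateral 1. The values of 60 for Hoxb3 and 51 for Hoxc6 were the highest of any member, and the other 2 libraries of Hdac2 ECKO had 0 and 8 counts of Hoxb3 and 4 and 0 of Hoxc6.
Among posterior genes, Hoxd11, which acts in forearm and kidney development, had 24 counts in Ezh2 ECKO 2 and 10 in Ezh2 ECKO 3, but 0 in Ezh2 ECKO 1. Hoxa10 reached 12 and Hoxa11 14 counts in MCAO contralateral 1, and Hoxc13, a hair and nail regulator, reached 10 in Hdac2 ECKO 2. The members under 10 counts in all 18 libraries were Hoxa2, Hoxa4, Hoxa5, Hoxa6, Hoxa13, Hoxb1, Hoxb6, Hoxb7, Hoxb8, Hoxb9, Hoxb13, Hoxc5, Hoxc9, Hoxc10, Hoxc11, Hoxc12, Hoxd1, Hoxd8, Hoxd9, Hoxd10, Hoxd12 and Hoxd13. MCAO contralateral 1 was the highest library for 17 of the 39 members and Ezh2 ECKO 2 for 7.

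**Figure D3:**
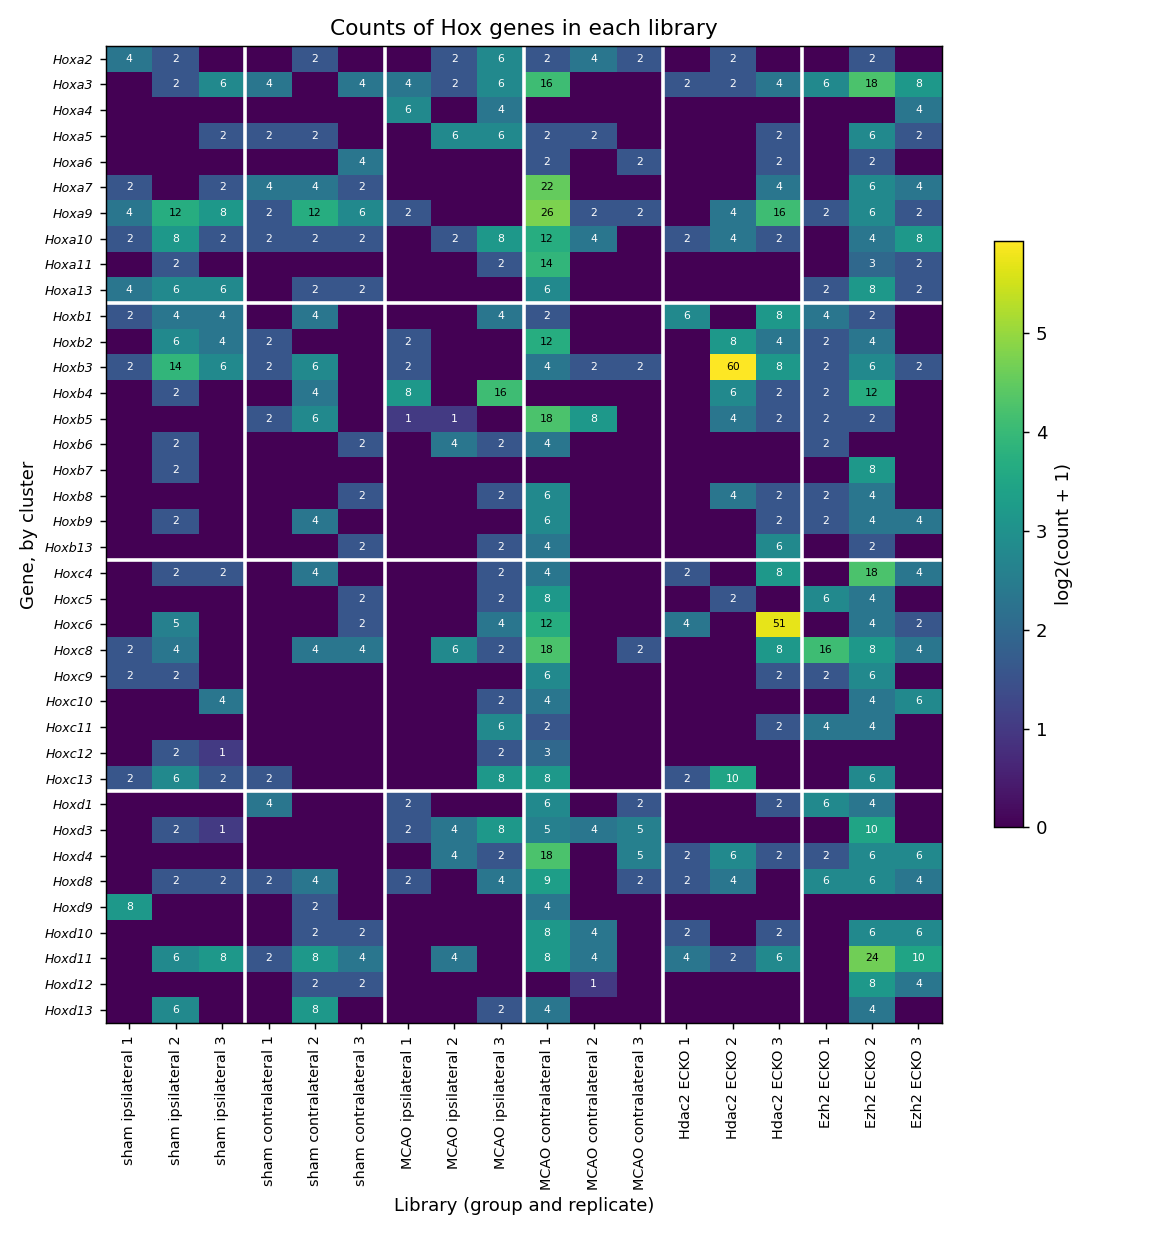
Counts of the Hox genes described one by one (rows, by cluster and paralogue) in the 18 libraries (columns, by group), shaded by log2(count + 1) with each count printed. The columns of MCAO contralateral 1 and Ezh2 ECKO 2 are filled most, and the brightest cells are 60 for Hoxb3 and 51 for Hoxc6 in single libraries of Hdac2 ECKO.

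Hoxa9 (chr6:52223100-52231089, minus strand), a posterior gene known for its part in blood stem cells and for activity in endothelium outside the brain, was the member with 10 or more counts in the most libraries, and its promoter window with 3 CpG is printed above. It had 4, 12 and 8 counts in sham ipsilateral, 2, 12 and 6 in sham contralateral, and 2, 0 and 0 in MCAO ipsilateral. It had 26, 2 and 2 in MCAO contralateral, 0, 4 and 16 in Hdac2 ECKO and 2, 6 and 2 in Ezh2 ECKO. All 3 sham ipsilateral counts lay above those of MCAO ipsilateral, and the spread within most groups was as wide as that between them. No comparison passed the edgeR test. MCAO ipsilateral against sham ipsilateral gave a log2 difference of -3.42 ± 1.83 (SE, edgeR adjusted p = 0.717), and MCAO ipsilateral against MCAO contralateral gave -4.03 ± 1.87 (edgeR adjusted p = 1, unadjusted p = 0.0427). Without the libraries of highest receptor level the latter was -1.33 ± 1.68 (edgeR adjusted p = 1).

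In Ezh2 ECKO against MCAO ipsilateral, 0 Hox genes were called. Of all 17094 genes tested 250 were called (1.46%), 39 of them higher (0.228%) and 211 lower; with RLE size factors, which moved the median of all genes from 0.17 to 0.36, the split was 119 higher and 249 lower. Hoxa9, the 1 Hox gene tested, differed by 2.39 ± 1.78 on the log2 scale (SE, edgeR adjusted p = 0.444), by 1.68 ± 1.70 without the libraries of highest receptor level (edgeR adjusted p = 0.590) and by 0.34 ± 1.11 with the receptor level as a covariate (edgeR adjusted p = 0.935). Leaving out 1 library moved it between 1.63, without Ezh2 ECKO 2, and 4.90, without MCAO ipsilateral 1. DESeq2 called 1616 genes and gave Hoxa9 no adjusted p. With no filter on low counts all 39 members were tested with edgeR and 0 were called, 4 had an unadjusted p under 0.05, and the smallest adjusted p was 0.249, for Hoxa13, a regulator of the limb tip and the hindgut. Hoxa13 had 0, 0 and 0 counts in MCAO ipsilateral and 2, 8 and 2 in Ezh2 ECKO, but also 4, 6 and 6 in sham ipsilateral. Its Ezh2 ECKO counts thus overlapped those of an undeleted, uninjured group. The other 3 were Hoxa7, Hoxd10 and Hoxd12, at 0 in all 3 MCAO ipsilateral libraries and at 0 in Ezh2 ECKO 1.

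By range, 7 of 39 members (Hoxa3, Hoxa9, Hoxb3, Hoxb9, Hoxc8, Hoxd8 and Hoxa13) had all 3 Ezh2 ECKO libraries above all 3 of MCAO ipsilateral in CPM, and 0 had them below. In counts, not scaled to the library total, 2 of these, Hoxb9 and Hoxa13, did not overlap, and the other 5 tied or overlapped at a few read pairs. Over all 21638 genes this held for 15.6% above and 10.3% below, and over the receptor genes for 32.6% above. The mean was higher in Ezh2 ECKO for 33 of 39 Hox genes, 66.1% of all genes and 98.3% of receptors. Hox genes above 0 in all 3 libraries numbered 8 in Ezh2 ECKO and 2 in MCAO ipsilateral, and those at 0 in all 3 numbered 2 and 9. The receptor level beside these counts was 984 ± 966 CPM in Ezh2 ECKO and 231 ± 71.9 CPM in MCAO ipsilateral (SD, n = 3). The ratio of Hox to receptor counts per kb was 0.270 ± 0.0827 in Ezh2 ECKO and 0.301 ± 0.153 in MCAO ipsilateral, which overlap. How near these means lay depended on the background set. Without the 10 highest receptors they were 0.381 ± 0.214 in Ezh2 ECKO and 0.728 ± 0.324 in MCAO ipsilateral. Against Tas2r and Defb they were 0.478 ± 0.301 and 0.871 ± 0.704. The libraries of the groups overlapped by these ratios too. With the receptor level as a covariate, the log2 difference of Hoxa9 was 0.34 ± 1.11 (SE, edgeR adjusted p = 0.935). For the other members the part of the background reads was not tested. The red cell list differed between these groups as well, with 5 of 5 genes lower in Ezh2 ECKO and called, as were 1 of 12 endothelial markers (Ly6c1, lower) and 1 oligodendrocyte lineage marker (Gpr17, lower), and their part was not tested. Without Ezh2 ECKO 1 the count of members above without overlap was 15, and without Ezh2 ECKO 3 it was 13, with 1 library fewer to overlap.

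In Hdac2 ECKO against MCAO ipsilateral, a comparison that shares its control libraries with the previous one, 0 Hox genes were called, beside 0.0117% of all genes (2 of 17094). Hoxa9 differed by 3.44 ± 1.83 on the log2 scale (SE, edgeR adjusted p = 0.553), and DESeq2, with 239 calls over all genes, gave it no adjusted p. By range, 0 members lay wholly above MCAO ipsilateral, beside 4.24% of all genes, and 1, Hoxd3, lay wholly below, beside 12.8%. Hoxd3 had 0, 0 and 0 counts in Hdac2 ECKO and 2, 4 and 8 in MCAO ipsilateral. With no filter 0 of 39 members were called by edgeR and 2 had an unadjusted p under 0.05, Hoxd3 and Hoxb3. The value for Hoxb3 rests on the 60 counts in Hdac2 ECKO 2.
Set directly against each other, Ezh2 ECKO and Hdac2 ECKO gave 0 called Hox genes, beside 0.123% of all genes (21 of 17094). Hoxa9 differed by -1.06 ± 1.65 on the log2 scale (SE, edgeR adjusted p = 0.838). By range, 3 members, Hoxa3, Hoxd8 and Hoxa13, were wholly higher in Ezh2 ECKO, beside 9.59% of all genes, and 0 were wholly lower, beside 2.91%. Hoxd8 had 6, 6 and 4 counts in Ezh2 ECKO and 2, 4 and 0 in Hdac2 ECKO.

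In the 4 comparisons of occlusion and of brain side, edgeR called 0 Hox genes and 0.0% of all genes. DESeq2 called 71, 25, 5 and 5 genes in them, in the order given here. It tested Hoxa9 alone of the Hox genes and did not call it. In MCAO ipsilateral against sham ipsilateral DESeq2 gave Hoxa9 no adjusted p, so no call was possible there. MCAO ipsilateral against sham ipsilateral had 1210 genes at an unadjusted edgeR p under 0.05, and Hoxa9, the 1 Hox gene tested, was not among them. With no filter 0 of 39 members were called and 1, Hoxa13, had an unadjusted p under 0.05. By range 3 members, Hoxa9, Hoxb3 and Hoxa13, were wholly lower after the occlusion, beside 22.0% of all genes and 31.2% of receptors, and 0 were wholly higher, beside 4.71%. MCAO contralateral against sham contralateral had 754 such genes without Hoxa9, and with no filter 0 of 39 members were called and 2, Hoxd3 and Hoxd4, had an unadjusted p under 0.05. By range 1 member, Hoxd3, was wholly higher, beside 3.32% of all genes, and 0 were lower, beside 4.5%. Hoxd3 had 5, 4 and 5 counts there against 0, 0 and 0.
MCAO ipsilateral against MCAO contralateral had 526 genes at an unadjusted edgeR p under 0.05, Hoxa9 among them. With no filter 0 of 39 members were called, and 3, Hoxa7, Hoxb4 and Hoxd10, had an unadjusted p under 0.05. By range 0 members were without overlap, beside 3.66% of all genes higher and 1.18% lower. Sham ipsilateral against sham contralateral had 317 such genes without Hoxa9, and 0 of 39 members without the filter, with Hoxa13 and Hoxc13 wholly higher on the ipsilateral side in CPM, beside 17.6% of all genes, and 0 lower, beside 1.61%. Hoxc13 had 2, 6 and 2 counts there against 2, 0 and 0 on the other side.

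Many of the genes near the clusters, but not all, had higher counts than the genes inside them. Within 300 kb of the 4 clusters the table held 28 other genes, a window chosen after the values were seen, and 15 of them had a median of 10 or more counts over the 18 libraries, against 0 of 39 Hox genes. Over all genes, the share with 10 or more counts in a library had a median of 60.2%. Mtx2, a mitochondrial membrane gene 60.7 kb beyond HoxD, had a median of 2860.5 counts, and Lnpk, an endoplasmic reticulum gene on the other side of HoxD, had 451. Beside HoxB, Snf8 had a median of 1394 counts and Ube2z 1071, and beside HoxA, Skap2 had 915 and Hibadh 1521.5. Cbx5, which encodes the heterochromatin protein HP1 alpha, and Hnrnpa1, an RNA-binding protein gene, lie beyond HoxC with medians of 2260 and 2288 counts. The homeobox genes Evx1, 52.6 kb from HoxA, and Evx2, 8.75 kb from HoxD, had medians of 0 and 2 counts, and the predicted genes Gm28308 and Gm28230 inside HoxA and HoxD had medians of 0 and 0. Ttll6, 28.9 kb from HoxB, had a median of 1 count, and Calcoco2 and Skap1, further from HoxB, had 2 and 8. The nearest genes outside HoxA, HoxB and HoxD thus had medians as low as those of Hox genes.

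**Figure D4:**
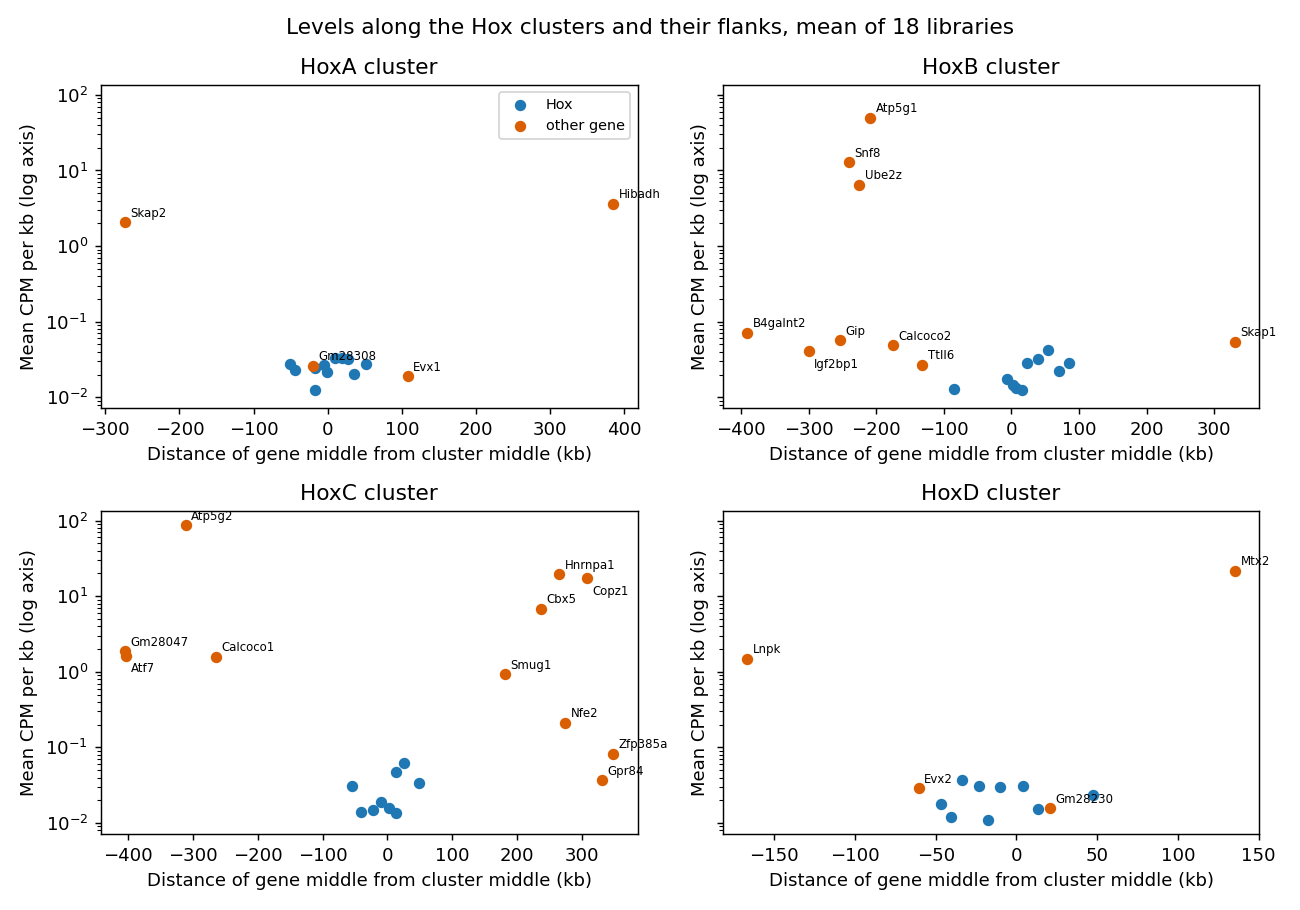
Mean level per length (CPM per kb, log scale) of each gene against its distance (kb) from the middle of the nearest Hox cluster, 1 panel per cluster, Hox genes and other genes in different colours. Hox genes lie low in every panel, with a median of 0.0236 CPM per kb, while 15 of the 28 other genes had a median of 10 or more counts.

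Most of the listed partners and regulators of Hox genes passed the count filter, but so did 72.6% of the receptor genes. Passing it is therefore no proof of expression. Hox cofactors are homeodomain proteins that bind DNA with Hox proteins. Of these 9 of 9 passed, with a median level of 0.200 CPM per kb. Pbx2 had a mean level of 3.89 CPM per kb and Pbx3 2.78. Meis1 at 0.058 and Meis2 at 0.050 CPM per kb lay under the receptor median of 0.0677. In Ezh2 ECKO against MCAO ipsilateral 0 of the 9 were called, with a median log2 difference of 0.22 beside 0.17 over all genes. The PRC2 list had a median level of 4.46 CPM per kb and 11 of 12 genes tested, of which 0 were called (median log2 difference -0.07).
Of 20 PRC1 genes, with a median level of 2.79 CPM per kb, 1 was called, beside 1.46% of all genes (250 of 17094). Bmi1, a PRC1 subunit, had 46.7, 47.6 and 71.9 CPM in MCAO ipsilateral and 192, 227 and 151 CPM in Ezh2 ECKO, with no overlap. It rose by 1.57 ± 0.39 on the log2 scale (SE, edgeR adjusted p = 0.0475), beside a list median of 0.12. Of 13 Trithorax and demethylase genes, with a median level of 3.91 CPM per kb, 1 was called, beside the same 1.46% of all genes. Kmt2c, a histone H3K4 methyltransferase, had 61.2, 51.4 and 65.9 CPM in MCAO ipsilateral and 161, 131 and 189 CPM in Ezh2 ECKO, with no overlap. It rose by 1.25 ± 0.30 on the log2 scale (SE, edgeR adjusted p = 0.0434), beside a list median of 0.21. With the receptor level as a covariate the log2 differences were 1.19 ± 0.33 for Bmi1 and 1.18 ± 0.29 for Kmt2c and missed the threshold (edgeR adjusted p = 0.127 and 0.107). Without the libraries of highest receptor level both were called, at 1.59 ± 0.37 and 1.50 ± 0.26 (edgeR adjusted p = 0.0236 and 0.00884). That fit called more genes in general, 1000 of all 15641 tested. Both missed the threshold when any 1 of the 6 libraries was left out.

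Of 16 retinoic acid genes, with a median level of 0.622 CPM per kb, 12 were tested and 0 called (median log2 difference -0.75 in Ezh2 ECKO against MCAO ipsilateral). Of 76 other homeobox and developmental regulators often under Polycomb, 38 were tested and 0 called. Among those tested, 28 were higher and 10 lower in Ezh2 ECKO, with a median log2 difference of 0.99 beside 0.17 over all genes and 2.92 over the 1064 receptors tested. With the receptor level as a covariate 21 were higher and 17 lower, with a median of 0.05. Without the libraries of highest receptor level 16 of 27 were higher, with a median of 0.69. In that fit 1 of the 27, Foxc1, was called, beside 1000 of all 15641 genes tested. The level of these 76 genes had a median of 0.0308 CPM per kb, beside 0.0236 for the Hox genes, but reached 37.4 CPM per kb for Foxc1, 13.5 for Foxf1 and 10.4 for Tbx3. Of the 13 listed neighbours of the clusters 10 were tested and 0 called. In the other 6 comparisons 0 genes of these 7 lists were called by edgeR.

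**Figure D5:**
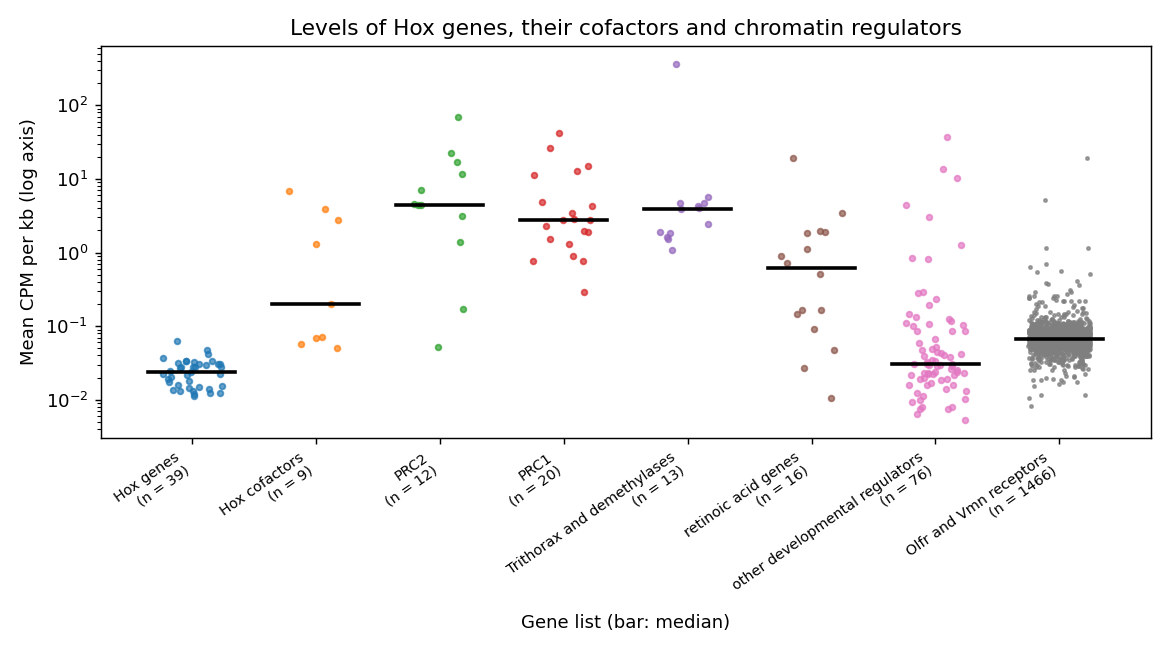
Mean level per length over 18 libraries (CPM per kb, log scale), 1 point per gene, by list, with a bar at each list's median. The Hox median is 0.0236 CPM per kb, beside 0.0308 for the other developmental regulators, 0.0677 for the receptors and 4.46 for PRC2.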

How the data were processed

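The deposited table gives 1 count per gene and library, with gene start, end, strand and length. The submitters' processing notes name FastQC, cutadapt, STAR, featureCounts, DESeq2 and the mm10 build, and their settings are not given in the sources used here. The table is called normalized, but the values deposited by the authors are whole numbers with unequal totals and mostly even (95.2% of Hox counts from 1 to 20), so they were analysed as unscaled counts of both mates. All 39 Hox starts equal GENCODE M21 (GRCm38) starts minus 1, and coordinates are given counted from 1. Each of 7 comparisons was tested with the edgeR 4.0.16 quasi-likelihood F-test (R 4.3.3, TMM scaling, 6 group means, all 18 libraries) on 17094 genes with at least 10 counts in at least 3 libraries. Benjamini-Hochberg adjusted p-values cover all genes tested, and a gene was called under 0.05. The SE is the log2 difference divided by the square root of F. A sum over members got no test. Named were Ezh2, Hdac2, each Hox gene past the filter with all its values, each other Hox gene with 10 or more counts in a library with its highest library, and up to 2 called genes of each list. The members, the lists and their alternatives were chosen with earlier results of these data known. Some values outside that rule (the neighbours, Hoxa13, Hoxd3, Hoxd8) were chosen after they were seen. Some genes enter the counts and sums but are not reported here by name. There were 0 sample columns without a sample.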

Additional observations from a re-analysis of the deposited data

How the results depend on the processing

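None of the 80 alternative fits over 7 comparisons gave a Hox call, with the smallest adjusted p of a Hox gene from 0.249 to 1 among them. Only the fits with no filter tested all 39 members. Each of the others tested Hoxa9 alone, so most of these fits say nothing of the rest of the set. A filter of 20 counts and halved counts tested no Hox gene, and DESeq2 1.42.0 gave Hoxa9 no adjusted p in 4 comparisons, so these gave no value. Named noncoding Hox transcripts were not run, since 0 such rows were found, and 2 predicted genes inside the clusters were added instead. Chosen after seeing the data were the receptors without their 10 highest, the Tas2r and Defb set, the level of Hoxc6 without a library, overlap in counts and the fits without the 2 libraries of highest receptor level.

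The summed Hox level, 2.68 CPM on average, became -11.0 with the mean receptor level subtracted, and ran from 2.16 to 2.81 with 1 library left out. The number of Hox genes at 10 or more counts, 1.44 ± 2.71 per library, ran from 0.882 to 1.53 so. The median ratio of Hox to receptor counts per kb, 0.224, became 0.468 without the 10 highest receptors and 0.450 against Tas2r and Defb. The members wholly higher in Ezh2 ECKO than in MCAO ipsilateral, 7, ran from 7 to 15 with 1 library left out.

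With the receptor covariate the Hoxa9 difference of Ezh2 ECKO against MCAO ipsilateral, 2.39, became 0.34, and with 1 library left out it ran from 1.63 to 4.90. The uncalled log2 difference of Hoxa9 changed sign in 3 comparisons. Ezh2 ECKO against Hdac2 ECKO became 0.60 without Hdac2 ECKO replicate 3 (range with 1 library left out -1.78 to 0.60). MCAO contralateral against sham contralateral, 0.58, became -1.20 with the receptor covariate, -2.09 without MCAO contralateral replicate 1 (range -2.09 to 1.58) and -2.12 without the 2 libraries. Sham ipsilateral against sham contralateral, -0.03, became 0.00092 with RLE factors, 0.0037 with the replicate block, 0.062 with no filter, 0.00072 with DESeq2, 0.32 without sham ipsilateral replicate 1 and 0.96 without sham contralateral replicate 2 (range -0.50 to 0.96). The cause was not tested.

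Deviations from the group means were correlated between same-numbered libraries of the 2 sides. The correlations were 0.104, 0.210 and -0.0367 between the sham sides, and 0.0140, 0.273 and -0.170 between the MCAO sides. Differently numbered libraries gave -0.246 to 0.181 between the sham sides and -0.286 to 0.275 between the MCAO sides. With 3 libraries per group these values cannot settle whether the numbers pair the samples. With the replicate block 0 Hox genes were called, and Bmi1 and Kmt2c missed the threshold (edgeR adjusted p = 0.0773 and 0.0736). Over all genes, DESeq2 called 239 genes for Hdac2 ECKO against MCAO ipsilateral and 647 for Ezh2 ECKO against Hdac2 ECKO, where edgeR called 2 and 21. The 250 calls of Ezh2 ECKO against MCAO ipsilateral became 12 with the block, 13 with the receptor covariate, 428 with halved counts, 384 with the 20-count filter, 1616 with DESeq2, 1000 without the 2 libraries and 5 to 298 with 1 library left out. Their split, 39 higher and 211 lower, was 119 and 249 with RLE factors, which moved the median of all genes from 0.17 to 0.36, 756 and 860 with DESeq2, and 387 and 613 without the 2 libraries.

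A count of 10 equalled 0.174 to 0.388 CPM, and the common biological coefficient of variation was 0.774. Small Hox differences were not detectable at this depth, and large ones also went uncalled. In Hdac2 ECKO against MCAO ipsilateral, Hoxa9 differed by 3.44 ± 1.83 on the log2 scale (SE, edgeR adjusted p = 0.553). With no filter, Hoxb3 differed there by 5.40 ± 2.09 (SE, edgeR adjusted p = 0.498), a value that rests on 60 counts in Hdac2 ECKO 2. The lack of Hox calls is therefore no evidence against large differences.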
